A study of Mus musculus with 32 samples.

Results

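The 10 transcripts that mark the choroid plexus epithelium and the ciliated ependyma of the brain ventricles were followed, library by library, in total RNA of cultured mouse hippocampus. They are Ttr, Kl, Folr1 and Clic6 (choroid plexus, 4 genes) and Foxj1, Ccdc153, Tmem212, Rsph1, Dynlrb2 and Enkur (motile cilia, 6 genes). They were taken by symbol from a table of 51267 features, and all 10 were found and passed the filter on low counts that left 17173 features for testing. The genes lie on 10 different chromosomes (RefSeq, GRCm38.p6), with Foxj1 at chr11:116330704-116335499 and Enkur at chr2:21180731-21205365. The cultures were primary hippocampal neurons prepared at P0 and treated at 16 days in vitro (DIV16) for 30 minutes. The adenylyl cyclase activator forskolin (FSK), a means of raising cAMP, was given at 50 µM in 6 libraries. The mGluR1/5 agonist DHPG was given at 30 µM in 6 libraries, and the vehicle DMSO, matched in volume, in 4 libraries. The sources used here do not give mouse strain, animals per culture or the origin of the replicates, so p-values measure the spread between libraries, which may be technical.

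The choroid plexus is a secretory epithelium that makes cerebrospinal fluid and exports carrier proteins, of which transthyretin (Ttr) is the best known. Ependymal cells line the ventricles and carry bundles of motile cilia whose beat moves that fluid. Their motile cilium programme is switched on by Geminin family regulators, the RFX factors and Foxj1, and it builds axonemes with dynein arms, radial spokes and a central pair. The miR-34 and miR-449 families are abundant in multiciliated cells, and miR-204 in the choroid plexus and the retinal pigment epithelium.

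The small RNA members of that programme were measured in a separate set of 16 miRNA libraries, and their mature sequences are shown because the miRNAs that moved with the ciliated genes fall into families defined by the seed. Sequences are from RefSeq (GRCm38.p6), 5′ to 3′, with the seed (bases 2 to 8) in capitals.
miR-449a-5p: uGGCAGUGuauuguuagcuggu
miR-449c-5p: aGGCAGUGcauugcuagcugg
miR-34b-5p: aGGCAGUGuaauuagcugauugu
miR-34b-3p: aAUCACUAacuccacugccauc
miR-34c-3p: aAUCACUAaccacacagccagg
miR-204-5p: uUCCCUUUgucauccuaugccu
The first 3 share the seed GGCAGUG, although miR-34b-5p comes from another chromosome than the 2 miR-449 miRNAs. miR-449a-5p lies at chr13:113037549-113037570 (+), miR-449c-5p at chr13:113036008-113036028 (+) and miR-34b-5p at chr9:51103610-51103632 (-). The 3p arms of miR-34b and miR-34c share AUCACUA, and miR-204-5p (chr19:22750610-22750631, +) has the unrelated seed UCCCUUU.

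Total RNA libraries held 20677117 to 59958600 counts and fell into sets of unequal depth that the labels do not describe. The deep set, over 30000000 counts, held DMSO 2 to 4, DHPG 6 and FSK 4 to 6, with 10.8 to 27.7% of counts in mitochondrial rRNA. The shallow set held DMSO 1, DHPG 1 to 5 and FSK 1 to 3, with 1.47 to 2.92%. DHPG and DMSO are therefore nearly confounded with depth set, since each set has only 1 library of one of them. FSK 4 and FSK 5 also stood apart in the markers of other cells. The summed level of 14 microglial genes was 235 CPM (counts scaled to library size with TMM factors) in FSK 4 and 403 CPM in FSK 5, against 24.7 to 45.7 in DMSO, 30.5 to 60.3 in DHPG and 27.7 in FSK 6. The 13 excitatory neuron genes summed to 1350 and 1525 CPM in FSK 4 and FSK 5, below every other library. The DMSO range was 1810 to 2390 and the DHPG range 1699 to 2373. The other FSK libraries ran from 1699 (FSK 2) to 1993 (FSK 6), so some DHPG and FSK libraries also fell below DMSO. No gene of these lists was at 0 in every library.

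Foxj1, the transcription factor that directs motile cilium assembly, measured 20.9, 174, 100.04 and 84.3 CPM in DMSO 1 to 4. In DHPG it ranged from 5.78 to 57.2 with a median of 20.4, and in FSK from 21.0 to 256 with a median of 34.1. FSK 4 (256) and FSK 5 (202) lay above every other library, DHPG 4 (5.78) and DHPG 5 (7.81) below every other, and the 3 groups overlapped.

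Rsph1, a radial spoke head protein, followed the same order at its ends. It measured 5.12, 19.0, 12.9 and 11.5 CPM in DMSO 1 to 4, 2.85 to 7.15 in DHPG (median 5.29) and 6.82 to 31.7 in FSK (median 9.05). All but 1 of the FSK libraries exceeded every DHPG library.

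Enkur, a protein of the ciliary and sperm axoneme first described as a TRPC channel adaptor, measured 2.52, 5.46, 4.75 and 4.70 CPM in DMSO 1 to 4 and 1.13 to 3.42 in DHPG (median 2.09). In FSK it lay between 3.33 and 4.85 in FSK 1, 2, 3 and 6 but at 28.6 in FSK 4 and 28.9 in FSK 5.

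Dynlrb2, a roadblock-type dynein light chain, measured 1.72, 12.2, 10.3 and 7.71 CPM in DMSO 1 to 4. Its DHPG range was 0.298 to 5.21 (median 1.65) and its FSK range 3.0 to 28.9 (median 6.19). Tmem212, a membrane protein used as an ependymal marker, measured 1.15, 13.1, 8.70 and 7.59 CPM in DMSO, 0.34 to 4.88 in DHPG (median 1.28) and 1.78 to 29.0 in FSK (median 5.20). For both genes the lowest library was DHPG 4 and the highest FSK 4, and the groups overlapped. Their lowest levels rest on few molecules, 7 counts for Dynlrb2 and 8 for Tmem212.

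Ccdc153, a coiled-coil protein used as an ependymal marker, measured 1.15, 5.20, 4.14 and 3.45 CPM in DMSO, 0.454 to 1.91 in DHPG (median 1.60) and 1.70 to 22.2 in FSK (median 2.48). It shared with the other 5 genes FSK 4 and FSK 5 as its highest libraries and DHPG 4 and DHPG 5 as its lowest. From lowest to highest library the ciliated genes spanned from 11.1-fold (Rsph1) to 97.1-fold (Dynlrb2).

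**Figure D1:**
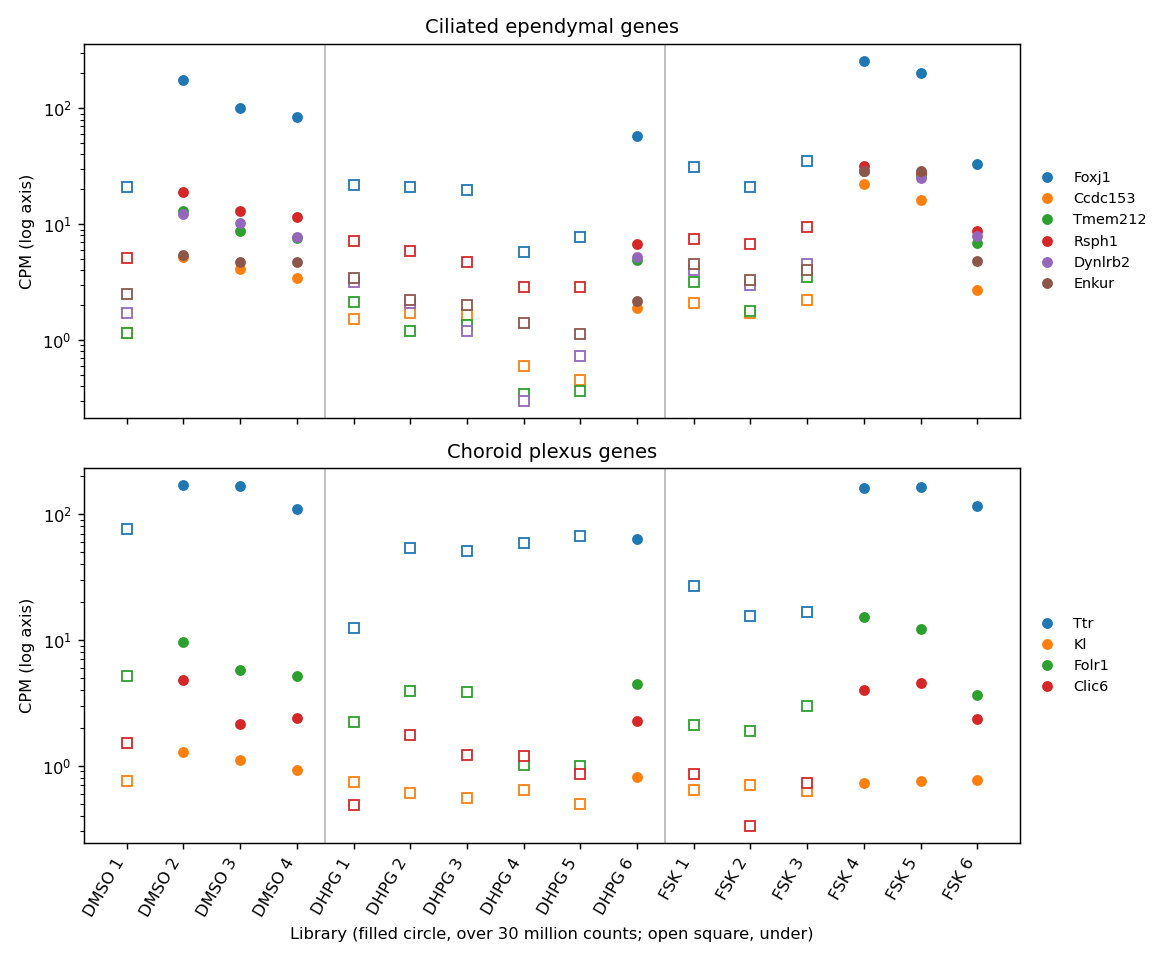
Level of each gene in each total RNA library, in CPM on a log axis, with the 6 ciliated genes above and the 4 choroid plexus genes below. Each point is 1 library, filled circles are the deep set and open squares the shallow set; the ciliated genes are highest in FSK 4 and FSK 5 and lowest in DHPG 4 and DHPG 5, whereas Ttr is lowest in DHPG 1 and FSK 1 to 3.

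Of the choroid plexus genes, Ttr, Kl and Clic6 had another order, and Folr1 shared its lowest and highest libraries with the ciliated genes. Ttr, the thyroxine and retinol carrier of cerebrospinal fluid, measured 76.6, 169, 167 and 110.4 CPM in DMSO 1 to 4 and 12.5 to 67.0 in DHPG (median 56.1). In FSK it was 15.4 to 27.1 in FSK 1 to 3 and 117 to 165 in FSK 4 to 6. All 6 DHPG libraries lay below every DMSO library, while FSK overlapped both groups.

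Folr1, the folate receptor that the plexus uses to move folate into the fluid, measured 5.21, 9.60, 5.80 and 5.19 CPM in DMSO, 0.999 to 4.50 in DHPG (median 3.06) and 1.89 to 15.3 in FSK (median 3.32). Its DHPG libraries too lay below every DMSO library. Over all features tested, 0.67% had every DHPG library below every DMSO library. FSK 4 and FSK 5 were above every DMSO library and the other 4 FSK libraries below every one. Folr1 was lowest in DHPG 5 and DHPG 4 and highest in FSK 4 and FSK 5, as the ciliated genes were.

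Clic6, an intracellular chloride channel family protein, measured 1.5, 4.81, 2.15 and 2.41 CPM in DMSO, 0.482 to 2.29 in DHPG (median 1.20) and 0.333 to 4.54 in FSK (median 1.60), with overlap between all groups. Kl (Klotho), a co-receptor for FGF23, measured 0.751, 1.27, 1.10 and 0.926 CPM in DMSO, 0.499 to 0.813 in DHPG (median 0.621) and 0.623 to 0.775 in FSK (median 0.716). Kl varied least, 2.55-fold between its extreme libraries, and rests on 11 to 49 counts a library. In Kl, FSK 4 and FSK 5 (0.729 and 0.753) did not stand apart from FSK 6 (0.775).

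Levels of the ciliated genes varied together across the 16 libraries. After the mean of each depth set was removed, Pearson's r of log2 CPM was 0.779 to 0.961 over the 15 pairs of ciliated genes, with a median of 0.914. Over the 6 choroid plexus pairs it was -0.13 to 0.778 with a median of 0.15. Over the 24 pairs across the lists it was -0.38 to 0.821 with a median of 0.11. The highest of these were the pairs of Folr1 with the ciliated genes, from 0.638 (Enkur) to 0.821 (Foxj1). Within its own list Folr1 had 0.103 (Kl) to 0.538 (Clic6). These correlations describe the same 16 libraries throughout and carry no test.

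Levels were next set against the DMSO libraries of the same depth set, which is 1 library (DMSO 1) in the shallow set and 3 in the deep set. In DHPG 4 and DHPG 5 all 6 ciliated genes lay below DMSO 1, at 0.173 to 0.558 of its level. In DHPG 6, the deep DHPG library, all 6 lay at 0.434 to 0.518 of the deep DMSO mean. DHPG 1 was instead above DMSO 1 in all 6, by 1.04 to 1.87-fold, so the DHPG libraries did not agree in direction.

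In FSK 1 to 3 all 6 ciliated genes were above DMSO 1, from 1.01-fold (Foxj1 in FSK 2) to 3.03-fold (Tmem212 in FSK 3). In FSK 4 they were 2.14-fold (Foxj1) to 5.76-fold (Enkur) above the deep DMSO mean, and in FSK 5 1.69-fold to 5.82-fold. FSK 6 went the other way, with ratios of 0.277 (Foxj1) to 0.975 (Enkur). The choroid plexus genes differed from this pattern in the shallow FSK libraries, where all 4 lay below DMSO 1 in FSK 1, FSK 2 and FSK 3. Ttr stood at 0.354, 0.202 and 0.219 of DMSO 1 there, and Kl at 0.858, 0.937 and 0.83.

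**Figure D2:**
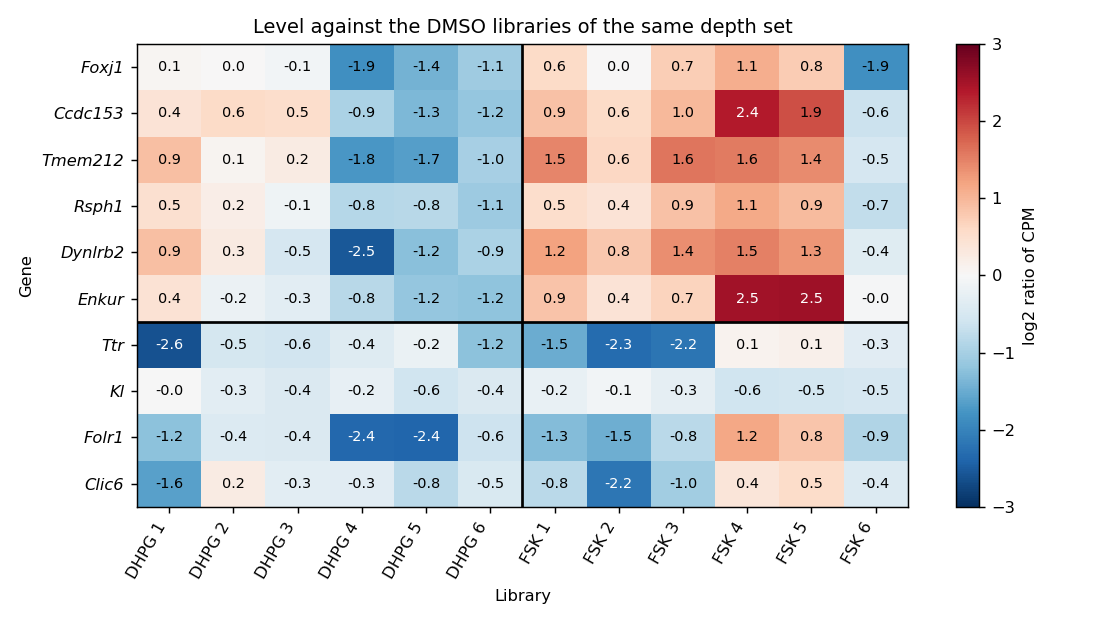
Log2 ratio of each gene's CPM to the mean CPM of the DMSO libraries of the same depth set (rows, genes; columns, DHPG and FSK libraries; red higher, blue lower). In FSK 1 to 3 the ciliated genes above the line are at or above 0 and the choroid plexus genes below the line are under 0; FSK 4 and FSK 5 are positive for all genes but Kl.

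The proportions among ciliated genes were not constant either. Counts of Enkur per 100 counts of Foxj1, a ratio that depends on transcript length and is read only between libraries, were 3.14, 4.75 and 5.57 in DMSO 2 to 4 and 3.77 in DHPG 6. They were 11.2, 14.3 and 14.6 in FSK 4, 5 and 6, so that within the deep set the FSK libraries did not overlap the others. In the shallow set the ratio was 12.1 in DMSO 1, 10.2 to 24.3 in DHPG and 11.4 to 15.9 in FSK, with overlap. Ccdc153 per 100 Foxj1 counts likewise was 2.99 to 4.14 in DMSO 2 to 4, 3.33 in DHPG 6 and 8.08 to 8.69 in FSK 4 to 6. Rsph1 per 100 Foxj1 counts overlapped, at 10.9 to 13.6 in deep DMSO against 12.4, 13.8 and 26.3 in FSK 4, 5 and 6. These ratios were chosen after the values were seen and carry no test.

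Against DMSO no member was called after DHPG. All 10 log2 fold changes were negative, from -0.65 (Kl) to -2.12 (Tmem212), with medians of -1.65 for the ciliated and -1.14 for the choroid plexus genes against -0.01 over all features tested. None had an adjusted p under 0.05 in the edgeR quasi-likelihood test, where 0.00582% of all features were called, nor in DESeq2 (0.0408% called). At an unadjusted p under 0.05 the edgeR test had 6 of the 10 members, against 12.4% of all features. That count changed with the libraries and the term: it was 0 with a term for depth set, 1 without DMSO 2 and 10 without FSK 4 and FSK 5. The share of all features at this limit in those fits is not given here, so these counts are not read as a result about the members. For Foxj1 the log2 fold change was -2.09 ± 0.77 (SE, adjusted p = 0.401), and for Ttr -1.36 ± 0.62 (adjusted p = 0.401). The authors' deposited table, made with DESeq, gave 3 members an adjusted p under 0.05 against 1.48% of its features: Ttr (log2 fold change -1.35, adjusted p = 0.0325), Rsph1 (-1.27, adjusted p = 0.0362) and Enkur (-1.08, adjusted p = 0.0412).

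The term for depth set also changed a direction. With a term for depth set the Ccdc153 change from DMSO to DHPG was 0.0069, against -1.41 ± 0.72 without the term. In bulk RNA, fewer cells of a type and less RNA per cell cannot be told apart, here or in any comparison below.

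After FSK no member was called against DMSO either. The ciliated genes had log2 fold changes of 0.02 (Foxj1) to 1.51 (Enkur) and the choroid plexus genes of -0.64 (Ttr) to -0.02 (Folr1). The edgeR and DESeq2 tests each called 0 of 10, with 0.809% and 7.43% of all features called, and 2 members (Kl and Enkur) had an unadjusted p under 0.05 in edgeR against 21.3% of features. Enkur was 1.51 ± 0.62 (SE) higher on the log2 scale (adjusted p = 0.181). Without FSK 4 and FSK 5 its value was -0.06, and those of Foxj1, Ccdc153, Tmem212, Rsph1 and Dynlrb2 also turned negative. The FSK libraries left in that fit are mostly shallow and the DMSO libraries mostly deep, so treatment and depth set are mixed in it. With the term for depth set as well, only Foxj1, Ccdc153 and Rsph1 of the ciliated genes were negative. The authors' deposited table called no member there, against 8% of its features.

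FSK against DHPG, the treatments compared with each other, was where the ciliated genes passed. All 6 were higher in FSK in the edgeR test, and DESeq2 called the same 6. The background was high, with 30.8% of all features called by edgeR, 16.3% called higher, and 37% called by DESeq2. Log2 fold changes (± SE) were 1.61 ± 0.44 for Rsph1 (adjusted p = 0.0198), 2.11 ± 0.72 for Foxj1 (adjusted p = 0.0388) and 2.51 ± 0.72 for Dynlrb2 (adjusted p = 0.0226). They were 2.59 ± 0.57 for Enkur (adjusted p = 0.0164), 2.59 ± 0.69 for Ccdc153 (adjusted p = 0.0186) and 2.74 ± 0.81 for Tmem212 (adjusted p = 0.0239). No member had every FSK library above every DHPG library, against 3.2% of all features. For Enkur, Ccdc153 and Rsph1, 5 of the 6 FSK libraries were above every DHPG library, and for Foxj1 only FSK 4 and FSK 5 were.

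None of the 4 choroid plexus genes was called between FSK and DHPG by edgeR or DESeq2, and 1 of them (Folr1) had an unadjusted p under 0.05, against 45.2% of all features. Their log2 fold changes were 0.13 ± 0.20 (Kl), 0.72 ± 0.57 (Ttr), 0.72 ± 0.55 (Clic6) and 1.20 ± 0.54 (Folr1, adjusted p = 0.0961). Whether the ciliated and the choroid plexus genes differ in this response was not tested.

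The calls of the ciliated genes rested on FSK 4 and FSK 5. Without them 0 of 6 passed, with 0.0179% of all features called, and the log2 fold changes were 0.43 (Foxj1) to 1.17 (Dynlrb2), all still positive. Enkur then had the smallest p of the 6 (log2 fold change 1.02 ± 0.28, adjusted p = 0.0899). In the shallow set alone, with 3 FSK and 5 DHPG libraries, the 6 values were 0.75 (Rsph1) to 1.38 (Tmem212) and 0 passed, against 0.0506% of all features. In the deep set, with 1 DHPG library, 0 passed and 0% of all features did. With a term for depth set 4 of the 6 passed (Tmem212, Rsph1, Dynlrb2 and Enkur), against 23.3% of all features, and with the term and without FSK 4 and FSK 5 only Enkur did, against 9.27%. Leaving out a single library mattered too. Without FSK 5, 2 of 6 were called, when 10.6% of all features were. It was 3 of 6 without FSK 4 (15.1% of all features), DHPG 3 (11.2%) or DHPG 5 (13.9%). The microglial, astrocyte and oligodendrocyte markers moved in the same comparison, with 9 of 14, 5 of 12 and 7 of 13 tested genes called higher, against 16.3% of all features, and 1 oligodendrocyte gene called lower. Without FSK 4 and FSK 5 none of these lists had a called gene. Summed astrocyte levels were 4187 to 7007 CPM in DMSO, 3376 to 6177 in DHPG and 5085 to 7661 in FSK, and oligodendrocyte lineage levels 554 to 944, 555 to 1037 and 709 to 1590. Their part in the result was not tested.

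**Figure D3:**
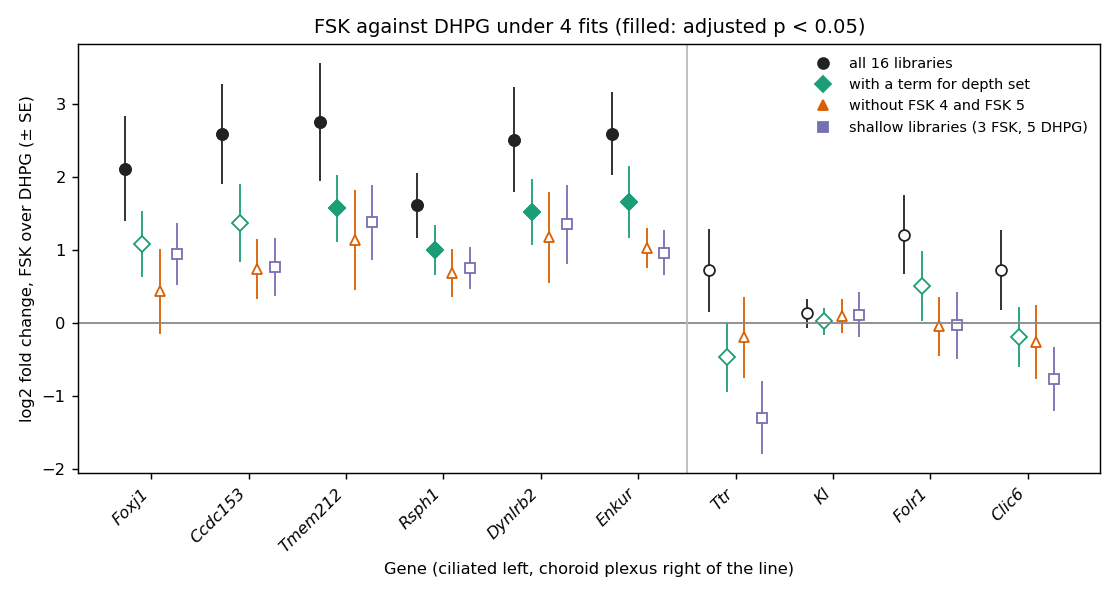
Log2 fold change of each gene, FSK over DHPG, with its standard error, from 4 edgeR fits: all 16 libraries, a term for depth set, without FSK 4 and FSK 5, and shallow libraries only. Filled symbols have an adjusted p under 0.05; the ciliated genes stay above 0 in all 4 fits, and Ttr, Folr1 and Clic6 change sign.

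The sign of the choroid plexus genes between FSK and DHPG changed with the libraries and the term used. Ttr moved from 0.72 to -0.20 without FSK 4 and FSK 5, to -0.47 with the term for depth set and to -1.30 ± 0.50 in the shallow set, where its adjusted p was 0.143. Clic6 moved from 0.72 to -0.27, -0.20 and -0.78 under the same changes. Folr1 moved from 1.20 to -0.049 without FSK 4 and FSK 5 and to -0.037 in the shallow set, where Kl was at 0.11.

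The wider motile cilium programme, 87 listed genes of which 83 could be tested, went with the 6 members. Between FSK and DHPG 68 of 83 were called higher and 0 lower, with a median log2 fold change of 2.06 against 0.03 over all features, of which 16.3% were called higher. Without FSK 4 and FSK 5 it was 0 of 81 with a median of 0.79, against 0.0179% of all features called in either direction. With the depth set term it was 55 of 83 with a median of 1.21, against 23.3%. Against DMSO the medians were -1.54 after DHPG and 0.47 after FSK. The edgeR test called 0 genes in both, against 0.00582% and 0.809% of all features. At an unadjusted p under 0.05 it had 61 and 3 of 83, against 12.4% and 21.3% of all features. DESeq2 called 0 and 1, against 0.0408% and 7.43%. DHPG and DMSO are nearly confounded with depth set, and these fits hold no term for it. Against DMSO of the same depth set, the list's mean log2 CPM was higher in DHPG 1 (by 0.59) and DHPG 2 (by 0.03). In DHPG 3 to 6 it was lower, with differences of -0.21 (DHPG 3) to -0.73 (DHPG 6).

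By role, 7 of 9 tested regulators of multiciliation were called higher in FSK than in DHPG, against 16.3% of all features. Gmnc, the Geminin family regulator that starts the programme, was at 0.209 ± 0.21 CPM in DHPG and 2.80 ± 3.18 in FSK (SD, n = 6 each; log2 fold change 3.65 ± 0.89, edgeR adjusted p = 0.0168). Deup1, a scaffold for centriole amplification, changed by 3.09 ± 0.76 (adjusted p = 0.0169), and Rfx3, a ciliary transcription factor, by 1.17 ± 0.28 (adjusted p = 0.0168). Without FSK 4 and FSK 5 none of 8 tested regulators was called, with a median of 0.75.

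Of the axonemal dynein arm and assembly genes 20 of 27 were called higher, against 16.3% of all features. Dnah5, an outer arm heavy chain, was 33.7 ± 17.0 CPM in DMSO (SD, n = 4), 14.8 ± 9.48 in DHPG and 52.5 ± 34.9 in FSK (n = 6 each). Its FSK over DHPG change was 1.82 ± 0.49 (SE, edgeR adjusted p = 0.0192). Of the radial spoke, central pair, doublet link and tektin genes 41 of 47 were called higher, among them Ccdc39, a molecular ruler of the axoneme (1.94 ± 0.34, adjusted p = 0.0164), and Spef2 of the central pair (3.04 ± 0.67, adjusted p = 0.0164). Without FSK 4 and FSK 5 the counts were 0 of 27 (median 0.68) and 0 of 46 (median 0.84), so that no gene named here was called.

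The primary cilium, which neurons and most other cells carry, shares its transport machinery with motile cilia. Of 39 intraflagellar transport and primary cilium genes 16 were called higher and 1 lower between FSK and DHPG, against 16.3% and 14.4% of all features, with a median of 0.31. Without FSK 4 and FSK 5 none was called, with a median of 0.13. Ift80 (1.37 ± 0.28, edgeR adjusted p = 0.0164) and Ift81 (0.81 ± 0.16, adjusted p = 0.0164) were among the 16.

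Near relatives of the members, most of them widely expressed, were compared in the same way. Dynlrb1, the widely expressed counterpart of Dynlrb2, measured 102, 99.9 and 89.2 CPM on average in DMSO, DHPG and FSK, with log2 fold changes of -0.03, -0.20 and -0.16 in the 3 comparisons. Of the 8 relatives tested (Dynlrb1, Clic1, Clic4, Foxj2, Foxj3, Rsph3a, Rsph4a and Rsph9) 1 was called between FSK and DHPG. Among all features 30.8% were called. The called relative was Rsph4a, a radial spoke head gene also counted in the motile cilium list (2.87 ± 0.69, edgeR adjusted p = 0.0168). Without FSK 4 and FSK 5 none of the 8 was called, against 0.0179% of all features. Foxj2 and Foxj3 had values of 0.19 ± 0.23 and 0.09 ± 0.16.

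Of 26 further choroid plexus genes 22 could be tested, and between FSK and DHPG 3 were called higher and 1 lower, against 16.3% and 14.4% of all features. The higher ones were Enpp2, which makes lysophosphatidic acid (1.05 ± 0.33, edgeR adjusted p = 0.0277), Calml4 (1.76 ± 0.55, adjusted p = 0.0282) and F5, coagulation factor V (2.49 ± 0.80, adjusted p = 0.0311). The lower one was Slc29a4, a monoamine transporter that neurons also express (-0.59 ± 0.16, adjusted p = 0.0186). The list's median was 0.71, and 0.02 without FSK 4 and FSK 5, when none was called. Against DMSO its median was -0.83 after DHPG and -0.03 after FSK, with 0 called in either by edgeR or DESeq2. At an unadjusted p under 0.05 in edgeR there were 4 and 1 of 22, against 12.4% and 21.3% of all features. Those fits hold no term for depth set. Against DMSO of the same set the list's mean log2 CPM differed by -0.71 (DHPG 1) to -0.06 (DHPG 2) over the DHPG libraries.

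The promoters of 5 members (Enkur, Tmem212, Kl, Dynlrb2 and Ccdc153), from 250 bases before to 50 after the gene's start, were searched on both strands for the X-box bound by RFX factors, GTNNCC and GNNAC with any 3 bases between them. Enkur alone held a match with that spacing, GTTTCCTTAGCAAC, beginning 12 bases before the start. It is shown because Enkur had the smallest adjusted p of the members, from RefSeq at chr2:21205346-21205465 (GRCm38.p6, minus strand), with the match in capitals.
Enkur: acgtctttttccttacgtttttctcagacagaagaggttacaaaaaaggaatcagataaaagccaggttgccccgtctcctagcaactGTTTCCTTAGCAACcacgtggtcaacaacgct
Of the 71 wider motile cilium genes with a promoter available, 23 held such a match, among them Deup1 (GTCTCCATGGCAAC). That is 28.4% of their 81 promoters, against 4.62% of all 32851 promoters. The forkhead core TGTTTAC was in 0 of the 5 members, 6.17% of the wider promoters and 3.65% of all. A match describes these letters only, and the motifs do not overlap. Other spacings were not searched. The Dynlrb2 promoter holds gttgcctagcaac, with the same fixed letters and fewer bases between them. The Enkur stretch shown holds gtctcctagcaac as well. The lack of a match therefore does not mean that a promoter has no X-box.

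The miRNAs of multiciliated cells had the same highest and lowest libraries as the ciliated genes. Of 10 miRNAs looked up 7 passed the filter that left 556 of 1963. miR-449a-5p measured 191, 2669, 1243 and 1273 CPM in DMSO 1 to 4, 71.3 to 649.6 in DHPG and 341 to 4969 in FSK. DHPG 4 (71.3) and DHPG 5 (96.8) were its lowest libraries and FSK 4 (4714) and FSK 5 (4969) its highest, as for Foxj1.

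miR-34c-5p measured 1737, 12654, 7155 and 6881 CPM in DMSO 1 to 4, 807 to 3790 in DHPG and 2990 to 28607 in FSK, again with FSK 4 and FSK 5 highest. miR-449c-5p, sharing the seed of miR-449a-5p, ranged from 2.06 in DHPG 5 to 254 in FSK 4. miR-204-5p, the choroid plexus miRNA, measured 5042, 7562, 5745 and 4227 CPM in DMSO, 1750 to 4655 in DHPG and 1711 to 9534 in FSK. Its 4 lowest libraries were FSK 2, DHPG 1, FSK 1 and FSK 3, the libraries in which Ttr was lowest.

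Between FSK and DHPG all 6 tested miRNAs of the miR-34 and miR-449 families were called higher in edgeR and in DESeq2. Of all miRNAs edgeR called 14.9% (7.91% higher) and DESeq2 20%. Log2 fold changes were 2.52 ± 0.70 (miR-34c-5p, edgeR adjusted p = 0.0364) to 3.52 ± 0.99 (miR-449c-5p, adjusted p = 0.0364), and 2.92 ± 0.87 for miR-449a-5p (adjusted p = 0.0428). The other strands were at 2.58 for miR-34b-5p, 2.63 for miR-34b-3p and 2.70 for miR-34c-3p. miR-204-5p changed by 0.43 ± 0.44 (adjusted p = 0.50) and was not called. Without FSK 4, FSK 5, DHPG 2, DHPG 3, DHPG 4 or DHPG 5, each left out alone, none of the 6 was called, and 0% of all miRNAs were. A fit of the miRNAs without both FSK 4 and FSK 5 was not run.

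Against DMSO the edgeR and DESeq2 tests called 0 of the 7 miRNAs in either treatment, and 0% of all miRNAs were called by edgeR in both comparisons (DESeq2, 0% after DHPG and 0.18% after FSK). At an unadjusted p under 0.05 there were 4 after DHPG (11% of all miRNAs) and 0 after FSK (9.53%). For miR-34c-5p the edgeR value after DHPG was -1.88 ± 0.73 (adjusted p = 0.397), and the authors' deposited table gave -1.85 with an adjusted p of 0.0368, where 0.781% of its miRNAs passed. In the authors' deposited table for FSK none of the 10 passed, against 0.072%.

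Across libraries of a depth set, matched by number and treatment between the assays, Foxj1 and miR-449a-5p were correlated. In the deep set (n = 7) Pearson's r of log2 CPM was 0.887 (exact permutation p = 0.0119, adjusted 0.0143) and Spearman's rho 0.893 (exact p = 0.0123). In the shallow set (n = 9) r was 0.945 (exact permutation p = 2.76e-06, adjusted 1.65e-05) and rho 1 (exact p = 5.51e-06). Without the 2 libraries farthest from the Foxj1 median r was 0.975 and 0.822. Both p-values of r are two-sided, and the second is the smallest that the permutations can give. The pair was chosen after the values were seen and the permutations mix the treatments, so these p-values are descriptive.

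Ttr and miR-204-5p had r of 0.757 in the deep set (n = 7, exact permutation p = 0.0385, adjusted 0.0385), where rho was 0.679 (exact p = 0.11), and r of 0.863 in the shallow set (n = 9, exact p = 0.00762, adjusted 0.0131), where rho was 0.817 (exact p = 0.0108). Without the 2 libraries farthest from the Ttr median r was 0.784 and 0.772. Foxj1 and miR-34c-5p gave r of 0.898 in the deep set (exact permutation p = 0.00873, adjusted 0.0131) and 0.918 in the shallow set (exact p = 1.38e-05, adjusted 4.13e-05), with rho of 0.929 and 0.983 and, without the 2 farthest libraries, r of 0.954 and 0.78. These are 6 relations, chosen after the values were seen and spanning the treatments, and that libraries of the same number come from the same culture is not stated in the labels.

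**Figure D4:**
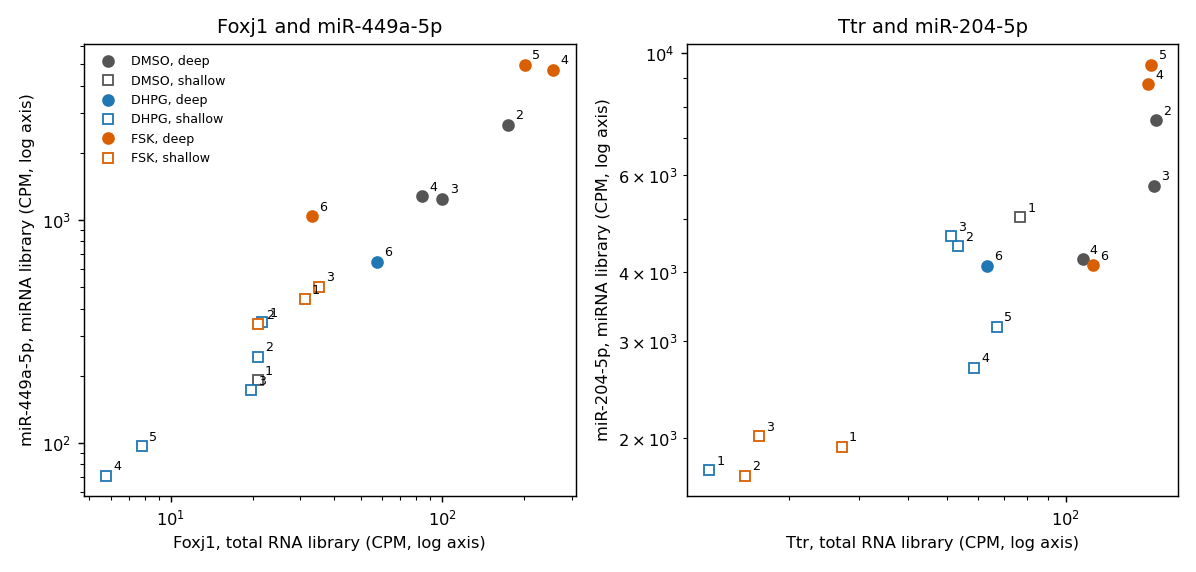
Foxj1 against miR-449a-5p (left) and Ttr against miR-204-5p (right), in CPM on log axes, 1 point per library number (colour, treatment; filled circle, deep set; open square, shallow set). FSK 4 and FSK 5 are at the upper right of both panels, DHPG 4 and DHPG 5 at the lower left only for Foxj1, and FSK 1 to 3 with DHPG 1 at the lower left for Ttr.

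Among all tested genes outside the members, those most like the ciliated group were Lrrc23 (r = 0.984), Ddo (0.984), Tm4sf1 (0.981), Fam183b (0.978) and Cntf (0.977), over 16 libraries with set means removed. Lrrc23, a radial spoke protein, and Fam183b were already in the motile cilium list. Tm4sf1, a tetraspanin-like membrane protein, measured 7.33 to 50.3 CPM in DMSO, 2.59 to 18.2 in DHPG and 7.78 to 121 in FSK. Those most like the choroid plexus group were Sulf1 (0.918), Ins2 (0.896), Nup214 (0.882), Fbln5 (0.878) and Car14 (0.867), at lower likeness. Ins2 stayed under 0.871 CPM in every library, and Nup214 ranged only from 19.9 to 27.5 CPM.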

How the data were processed

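Per the submitters' processing notes, the authors quantified reads with Salmon against GRCm38 and compared groups with DESeq, and the sources used here give no versions. Per the labels' protocols, RNA was extracted with Trizol and chloroform and the total RNA kit was stranded. The deposited tables hold estimated counts, of which 26.6% (total RNA) and 3.68% (miRNA) of the values are not whole, and they were rounded to whole numbers. The authors' deposited comparison tables hold a log2 fold change, p-values, a mean normalized signal and a Wald score. Columns named Control were taken as DMSO samples of the same number. No deposited column was left without a sample.

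Counts were tested with edgeR 4.0.16 (R 4.3.3): TMM factors, filterByExpr with a minimum count of 10, robust quasi-likelihood F tests, all 3 groups of an assay in 1 fit without a replicate block. P-values were adjusted over all 17173 total RNA features or 556 miRNAs (Benjamini-Hochberg, limit 0.05), and "called" means an adjusted p under that limit. SE is the log2 fold change over the root of F. Log2 CPM used a prior count of 2. miRNA libraries held 1748819 to 6756996 counts. The fit was tested on simulated data with 1 low spread for every gene and no difference between depth sets other than total counts. The spread of the members was larger, as for Foxj1 in FSK (mean 96.3 CPM, SD 104). That simulation therefore does not speak for the members. Alternatives were DESeq2 1.42.0 size factors and Wald test, library totals without TMM, no filter, a replicate block, each library left out, a term for depth set and no FSK 4 and FSK 5. Depth sets alone, and the term without FSK 4 and FSK 5, were added after seeing the data.

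The members and lists were chosen with earlier results of these data known. All members are named. Of each list up to 4 passing genes of smallest p are eligible for naming, all close relatives, and the 5 genes most correlated with the mean of the members' z-scores. Symbols were matched to RefSeq (GRCm38.p6). Counts are not corrected for length, so levels are not compared between genes.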

Additional observations from a re-analysis of the deposited data

Results flagged for a closer look

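Among 51 groups of 4 or 6 libraries checked, 2 held a library far from the rest, and chance alone gives about 1 in 20. Ttr in DHPG 1 was the lowest of its group at 12.5 CPM, with the next at 51.2, a gap of 0.839 of the group's range. miR-34c-3p in DMSO 1 was the lowest at 17.6 CPM, with the next at 60.9, a gap of 0.894 of the range.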

How the results depend on the processing

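Against DMSO no member was called under any alternative run. In FSK against DHPG the 6 called members became 3 without a filter on low counts, 0 without FSK 4 and FSK 5, 1 with that change and the depth set term, 0 in deep and 0 in shallow libraries only, and 2 to 6 with 1 library left out. The 68 wider motile cilium genes became 33, 0, 15, 0 and 0 under the same changes in that order, and 21 to 75. The 4 wider choroid plexus genes became 1, 0, 2, 0 and 0, with 2 under the depth set term alone, and 1 to 6. The 6 miRNAs became 0 without a filter and 0 to 6 with 1 library left out. In FSK against DMSO, where none was called, 1 wider motile gene was called with DESeq2, when 7.43% of all features were. With the depth set term 5 wider motile genes and 1 wider choroid plexus gene were called, against 9.45% of all features. Without FSK 4 and FSK 5 it was 1 wider motile gene, against 0.227%. These counts are not read as a result about the lists. Fewer libraries and other numbers of genes tested are part of these changes by construction, and beyond that the cause was not tested.

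The replicate block left 1 member, 17 wider motile cilium genes, 1 wider choroid plexus gene and 0 miRNAs called in FSK against DHPG. With the block 24.3% of all total RNA features and 0% of all miRNAs were called in that comparison. Deviations of same-numbered libraries from their group means correlated at -0.41 to 0.39 in total RNA and -0.45 to 0.41 in miRNA, with 3 of 14 over 0.1 in each. In each assay 1 of 16 libraries correlated best with its own number. Depth set was not removed, and several same-numbered libraries lie in different depth sets of total RNA. These values therefore cannot decide whether the numbers pair the samples. With the block the log2 fold change of FSK over DMSO was -0.42 for Foxj1, -0.046 for Tmem212, -0.12 for miR-449a-5p and -0.017 for miR-34b-5p.

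Signs turned in FSK against DHPG as follows. Ttr was -0.47 with the depth set term, -0.20 without FSK 4 and FSK 5, -0.76 with both and -1.30 in shallow libraries. Clic6 was -0.20, -0.27, -0.53 and -0.78 in that order. Folr1 was -0.049 without FSK 4 and FSK 5, -0.093 with the term as well and -0.037 in shallow libraries, and Kl was -0.14 in deep libraries. In FSK against DMSO, without FSK 4 and FSK 5, Foxj1 was -1.66, Ccdc153 -0.67, Tmem212 -0.99, Rsph1 -0.59, Dynlrb2 -0.72 and Enkur -0.064. With the term as well Foxj1 was -0.51, Ccdc153 -0.10 and Rsph1 -0.16. Foxj1 was -0.0019 without TMM and -0.00067 without a filter, and in deep libraries Folr1 was 0.57 and Clic6 0.20. In DHPG against DMSO Ccdc153 was 0.0069 with the term and 0.049 in shallow libraries. With 1 library left out, values in FSK against DMSO ran from -0.49 to 0.25 (Folr1), -0.69 to 0.10 (Clic6), -0.55 to 0.51 (Foxj1), -0.012 to 0.65 (Rsph1) and -0.022 to 1.0 (miR-34b-5p).

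Of all total RNA features, 5283 were called in FSK against DHPG, and 2510 without TMM, where 70.1% of calls were higher against 53.1%. Without a filter 2903 were called, 3 without FSK 4 and FSK 5, 1550 with the term as well, 0 in deep and 9 in shallow libraries. In FSK against DMSO the 139 calls became 62 without TMM, 1276 with DESeq2, 66 without a filter, 531 with the block, 1622 with the term, 38 without FSK 4 and FSK 5, 56 with both and 11 in shallow libraries. In DHPG against DMSO the 1 call became 7 with DESeq2. With 1 library left out these calls ran from 1799 (without FSK 5) to 5799 (without FSK 3) in FSK against DHPG, from 12 (without DMSO 3) to 427 (without DHPG 6) in FSK against DMSO and from 0 to 5 in DHPG against DMSO. Without TMM the median miRNA in DHPG against DMSO moved by -0.12. Depth limits the low levels: the lowest count in any library was 7 for Dynlrb2, 8 for Tmem212, 9 for Clic6, 10 for Ccdc153 and 11 for Kl.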
